A study of Arabidopsis thaliana with 18 samples.

Results

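In Arabidopsis leaf mesophyll protoplasts, cells freed of their walls by enzymes, the change in expression over the first days of culture was compared between nph4-1 arf19-1, a double mutant of the auxin response factor genes ARF7 and ARF19, and the Columbia-0 wild type (WT). For each locus, the quantity reported was the interaction, which is the log2 change at Day 4 relative to Day 0 in nph4-1 arf19-1 less the same change in WT. It contrasted 12 of the 18 RNA-seq libraries, in groups chosen by sample title: Day 0 nph4-1 arf19-1, Day 0 WT, Day 4 nph4-1 arf19-1 and Day 4 WT, with 3 libraries each. Day 0 samples were freshly isolated protoplasts of both genotypes, and Day 4 samples had been cultured in alginate in the dark, in a medium with the synthetic auxin 2,4-D and the cytokinin-like compound thidiazuron, so that both genotypes received the same hormones. Of 24532 loci in the files, 18143 had enough reads to be tested.

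Auxin binds TIR1/AFB receptors, which then mark Aux/IAA repressors for degradation and so free ARF activators such as ARF7 and ARF19 to switch on their target genes. Early targets include the Aux/IAA genes themselves and GH3 genes, whose enzymes conjugate auxin to amino acids, so that the response feeds back on itself. In culture with auxin and cytokinin, protoplasts lose mesophyll functions, rebuild a wall and re-enter the cell cycle. A locus with a negative interaction was induced less, or repressed more, in nph4-1 arf19-1 than in WT, and a positive interaction is the reverse.

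The 12 libraries held 4124789 to 12119944 mapped reads, and 3 reads corresponded to between 0.338 and 0.658 CPM, the read count relative to the TMM-scaled library total, a floor that covers counting error only. The Day 6 libraries entered the same fit and so helped set the spread behind each FDR, and with the 12 libraries alone 149 loci were higher and 335 lower past the limits given below. The study's methods call the 3 libraries of a group biological replicates, the labels do not say which steps they shared, and p-values measure the spread between these samples. The mutated genes were examined before the others. ARF7 was at 46.6, 37.7 and 49.8 CPM in the Day 0 nph4-1 arf19-1 libraries, against 156, 170.1 and 165 CPM in WT, and at 12.5, 10 and 12.4 CPM in nph4-1 arf19-1 at Day 4, against 38.8, 35.9 and 33.7 CPM in WT. All nph4-1 arf19-1 libraries were below all WT libraries on both days, and the decline over 4 days did not differ detectably between the genotypes (interaction 0.25 ± 0.16 (SE), FDR 0.295). ARF19 differed in its change. It was at 10.3, 11 and 13.2 CPM in nph4-1 arf19-1 and 11.5, 9.21 and 7.09 CPM in WT at Day 0, and at 9.67, 9.87 and 8.75 CPM in nph4-1 arf19-1 and 60.9, 50.9 and 42.9 CPM in WT at Day 4. The genotypes overlapped at Day 0 and separated at Day 4 (interaction -2.75 ± 0.26 (SE), FDR 7.79e-07, edgeR). Summed CPM of 5 mesophyll markers lay between 1190 and 2770 in nph4-1 arf19-1 and 937 and 1440 in WT at Day 0, and between 233 and 312 in nph4-1 arf19-1 and 189 and 392 in WT at Day 4. The epidermal and xylem marker sums did not exceed 7.73 CPM in any library of these days. The guard cell marker sum was higher in nph4-1 arf19-1 on both days, at 495 to 623 CPM against 271 to 308 CPM in WT at Day 0 and at 483 to 515 CPM against 122 to 171 CPM in WT at Day 4, nearly all of it from the myrosinase gene TGG1. The other members did not move together at Day 4, with MYB60 at 0.346 to 0.817 CPM in nph4-1 arf19-1 against 3.44 to 5.83 CPM in WT, FAMA at 8.99 to 11.3 CPM in nph4-1 arf19-1 against 5.31 to 6.41 CPM in WT, and HT1 and KAT1 at 2.25 CPM or less. The phloem marker sum was 0.658 to 1.87 CPM in nph4-1 arf19-1 and 0.396 to 1.22 CPM in WT at Day 0, and 2.04 to 4.47 CPM in nph4-1 arf19-1 and 9.42 to 14.3 CPM in WT at Day 4. The part of other cells in the results was not tested. In bulk samples, fewer cells of a type and less RNA per cell cannot be told apart.

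In all, 551 loci (3.04% of those tested) passed the limits of an absolute log2 interaction above 2 and a false discovery rate (FDR, Benjamini-Hochberg) below 0.01. They comprised 167 loci with a higher change in nph4-1 arf19-1, 0.92% of loci tested, and 384 with a lower change, 2.12% of loci tested. At FDR below 0.05 and with no limit on fold, 2270 loci were higher (12.5%) and 1994 lower (11.0%), and the median interaction of all loci tested was -0.003. Most of the response to culture was shared, since 4639 loci (25.6%) were induced past the limits in WT and 3344 of these also passed in nph4-1 arf19-1, where 21.1% of all loci tested were induced past the limits. Of the loci induced in WT, 273 (5.88%) were also past the interaction limits in the direction of weaker induction. Only 204 (4.4%) of the loci induced in WT were among these and also lower in nph4-1 arf19-1 at Day 4 (FDR below 0.05). Of the 2718 loci repressed in WT, which were 15.0% of loci tested, 88 (3.24%) were past the interaction limits in the direction of weaker repression. All but 1 of these, 87 (3.2%), were also higher in nph4-1 arf19-1 at Day 4. These counts depend on the libraries: without Day 4 WT replicate 1, the count of higher loci was 268 in place of 167. The balance of directions at FDR below 0.05 depended on the scaling. With library totals alone and no TMM, 2068 loci were higher and 2141 lower.

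**Figure D1:**
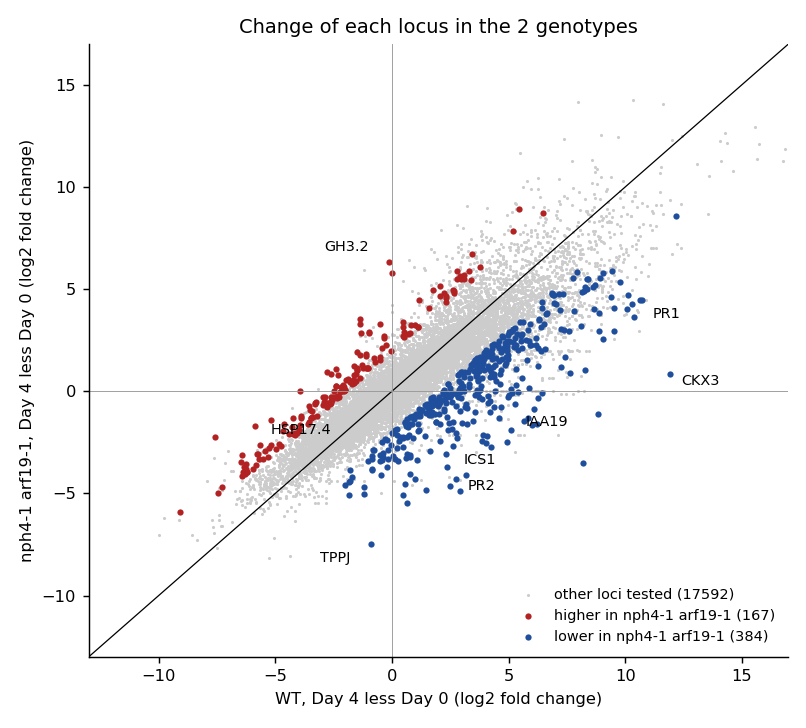
Log2 change at Day 4 relative to Day 0 in nph4-1 arf19-1 (y axis) and in WT (x axis) for each locus tested. Points on the diagonal changed equally, the 167 red loci passed the interaction limits with a higher change in nph4-1 arf19-1, and the 384 blue loci passed with a lower change.

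Among the 384 loci with a lower change, 326 were induced in WT (FDR below 0.05) and their induction was weaker or missing in nph4-1 arf19-1. Of these, 156 were still induced in nph4-1 arf19-1, 93 did not pass the test there and 77 were repressed. Of the 326, 124 were lower in nph4-1 arf19-1 than in WT at Day 4 with no Day 0 difference called (FDR below 0.05). Another 115 were lower at Day 4 and higher at Day 0, and 67 were higher at Day 0 with no Day 4 difference called. Across all loci tested, 43.0% were induced and 38.1% repressed in nph4-1 arf19-1 at this FDR, and 45.9% were induced and 38.6% repressed in WT. A median of 16.9% of the WT log2 change was kept in nph4-1 arf19-1 (quartiles -26.1% and 42.8%), although 98 of the 326 loci had a group with 3 reads or fewer in every library, for which the fitted change depends on the prior count. The other 58 were repressed in nph4-1 arf19-1 and not induced in WT. Among the 167 loci with a higher change, 119 were repressed in WT, with a median of 18% of the log2 change kept (quartiles -29.2% and 48.2%), and 48 were induced in nph4-1 arf19-1, of which 32 were also induced in WT and 16 did not pass the test there. These counts share libraries with the interaction and are descriptions of it. The limits themselves favour loci that kept little of the WT change, so the kept shares partly follow from the selection.

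An interaction can arise from a genotype difference on either day, and the direct differences divided the loci accordingly. Of the 384 loci with a lower change, 269 were lower in nph4-1 arf19-1 than in WT at Day 4 (FDR below 0.05). For 135 of these no Day 0 difference passed the test (median Day 0 log2 difference 0.86), 133 were at the same time higher in nph4-1 arf19-1 at Day 0, and 1 was lower on both days. The remaining 115 loci were higher in nph4-1 arf19-1 in fresh protoplasts without being lower at Day 4, with 85 showing no called difference at Day 4 (median -0.18) and 30 still being higher. In contrast, 159 of the 167 loci with a higher change were higher in nph4-1 arf19-1 at Day 4, and 122 of them had no called Day 0 difference. Across all loci tested, 11.1% were higher and 5.66% lower in nph4-1 arf19-1 at Day 0 at this FDR, and 21.0% were higher and 19.2% lower at Day 4. These direct differences are parts of the interaction, so the division describes it and is no further test. Without replicate 2 of nph4-1 arf19-1 at Day 0, 172 in place of 269 loci combined a lower change with a lower Day 4 level, and without Day 4 WT replicate 1, 258 in place of 159 combined a higher change with a higher Day 4 level.

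**Figure D2:**
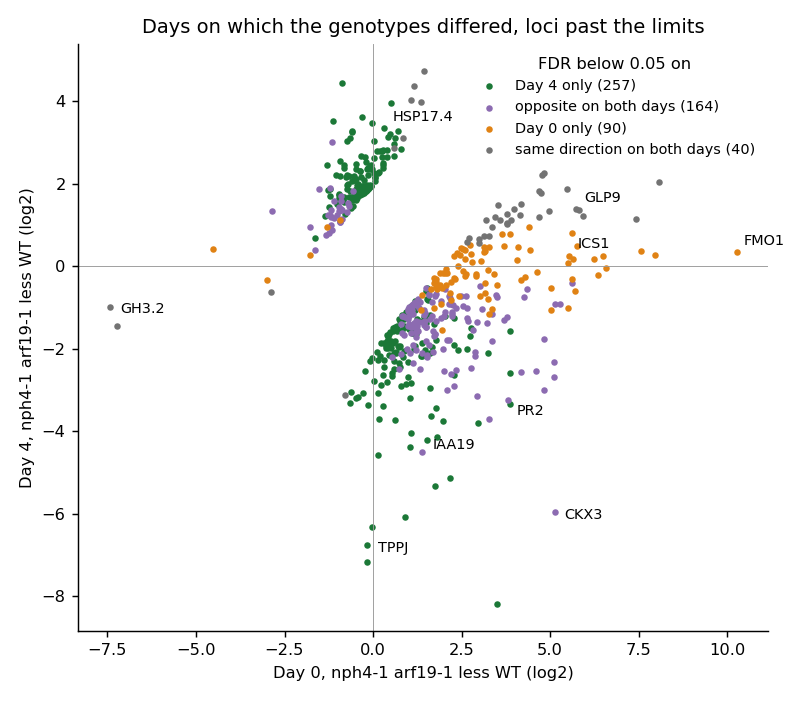
Log2 difference of nph4-1 arf19-1 from WT at Day 0 (x axis) and Day 4 (y axis) for the 551 loci past the interaction limits, coloured by the days on which the direct difference passed FDR below 0.05. TPPJ lay close to no difference at Day 0 and far below WT at Day 4, FMO1 and ICS1 were far above WT at Day 0 and close to it at Day 4, and GH3.2 was far below WT at Day 0.

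Promoters of 8 loci are shown to let the motifs counted below be seen in genes whose values follow. They were picked after their values and motifs were known. Each sequence is the 250 bases before the annotated gene start in TAIR10.1 (RefSeq), 5′ to 3′ on the gene's strand. In the first 5 sequences, of 4 auxin genes and the wall protein gene CWLP, the capitals mark TGTCTC, an auxin response element bound by ARFs, or its reverse complement.
IAA19 (chr3:5263751-5264000, plus strand): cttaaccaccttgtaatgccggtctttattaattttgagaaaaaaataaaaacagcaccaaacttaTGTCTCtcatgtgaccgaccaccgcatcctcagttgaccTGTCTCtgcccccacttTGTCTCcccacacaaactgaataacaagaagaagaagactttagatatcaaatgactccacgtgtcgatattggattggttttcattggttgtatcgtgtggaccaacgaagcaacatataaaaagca
CWLP (chr3:7796461-7796710, minus strand): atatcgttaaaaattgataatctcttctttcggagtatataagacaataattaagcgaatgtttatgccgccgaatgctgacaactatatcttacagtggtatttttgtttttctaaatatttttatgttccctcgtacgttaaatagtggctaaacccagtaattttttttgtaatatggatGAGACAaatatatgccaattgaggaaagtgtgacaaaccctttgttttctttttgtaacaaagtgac
GH3.5 (chr4:13653329-13653578, plus strand): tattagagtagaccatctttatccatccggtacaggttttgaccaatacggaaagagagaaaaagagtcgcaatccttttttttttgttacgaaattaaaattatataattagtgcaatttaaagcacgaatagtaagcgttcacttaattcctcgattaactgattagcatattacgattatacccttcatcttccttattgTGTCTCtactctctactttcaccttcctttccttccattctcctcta
GH3.2 (chr4:17579368-17579617, plus strand): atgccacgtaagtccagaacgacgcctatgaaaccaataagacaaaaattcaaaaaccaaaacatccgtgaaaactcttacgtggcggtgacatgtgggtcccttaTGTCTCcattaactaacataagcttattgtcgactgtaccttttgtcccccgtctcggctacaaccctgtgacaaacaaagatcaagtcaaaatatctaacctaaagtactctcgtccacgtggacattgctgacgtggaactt
GH3.3 (chr2:9866563-9866812, minus strand): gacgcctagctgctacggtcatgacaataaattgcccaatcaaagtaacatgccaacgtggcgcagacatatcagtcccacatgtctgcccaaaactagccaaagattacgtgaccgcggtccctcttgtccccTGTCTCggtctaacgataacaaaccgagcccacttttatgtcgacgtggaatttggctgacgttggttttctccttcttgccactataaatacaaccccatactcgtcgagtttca
For 2 defence-related genes the capitals mark TTGACC or TTGACT on either strand, W-boxes bound by WRKY factors.
TAT3 (chr2:10585217-10585466, minus strand): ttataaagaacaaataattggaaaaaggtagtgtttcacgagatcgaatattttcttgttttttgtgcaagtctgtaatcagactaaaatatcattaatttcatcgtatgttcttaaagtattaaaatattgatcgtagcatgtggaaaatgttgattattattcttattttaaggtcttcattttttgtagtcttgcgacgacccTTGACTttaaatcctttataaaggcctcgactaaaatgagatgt
WRKY62 (chr5:352096-352345, minus strand): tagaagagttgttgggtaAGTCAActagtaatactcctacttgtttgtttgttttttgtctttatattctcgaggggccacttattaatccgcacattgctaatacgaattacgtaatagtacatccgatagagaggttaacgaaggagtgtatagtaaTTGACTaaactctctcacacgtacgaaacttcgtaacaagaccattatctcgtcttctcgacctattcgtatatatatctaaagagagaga
In the small heat shock protein gene they mark GAANNTTC, the core of a heat shock element, which reads the same on both strands.
HSP17.4 (chr3:16984868-16985117, minus strand): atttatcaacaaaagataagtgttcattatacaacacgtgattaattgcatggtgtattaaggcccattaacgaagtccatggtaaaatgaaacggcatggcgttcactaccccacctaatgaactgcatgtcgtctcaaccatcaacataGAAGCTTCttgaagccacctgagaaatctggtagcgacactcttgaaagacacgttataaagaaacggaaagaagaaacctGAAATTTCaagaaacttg
The IAA19 promoter held 3 copies of TGTCTC on the gene's strand, CWLP held 1 copy on the other strand, and GH3.5, GH3.2 and GH3.3 each held 1 copy on the gene's strand. TGTCTC was present, on either strand, in 15.4% of 267 promoters of loci with a lower change and a lower Day 4 level, 10.6% of 113 promoters of loci with a lower change that were higher at Day 0 and not lower at Day 4, and 11.0% of 154 promoters of loci with a higher change, beside 10.5% of all 17741 promoters of tested loci. TGTCGG, another ARF-bound variant sharing its first letters, was present in 7.49%, 1.77% and 3.9% of these sets, beside 4.68% of all. The W-boxes were present in 29.2%, 48.7% and 34.4% of them, beside 29.0% of all, and GAANNTTC in 10.5%, 21.2% and 18.2%, beside 9.72% of all. A match is a description of the letters in this window, not a binding site.

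The auxin pathway genes did not all move in 1 direction. Of 20 Aux/IAA repressor genes tested, 5 had a lower (25%) and 2 a higher change (10%) in nph4-1 arf19-1 at FDR below 0.05, beside 11.0% and 12.5% of all loci. The median interaction was -1.39 (-1.15 with each library set to at least 3 reads), beside -0.003 for all loci. A group with 3 reads or fewer in every library was present for 8 of the 20, which limited these calls. In the direct Day 4 difference, 13 of the 20 were lower and 4 higher in nph4-1 arf19-1, beside 19.2% and 21.0% of all loci. IAA19 was at 5.51, 8.33 and 4.39 CPM in nph4-1 arf19-1 and 2.18, 2.84 and 1.88 CPM in WT at Day 0, and at 3.27, 4.67 and 4.27 CPM in nph4-1 arf19-1 and 85.3, 93.6 and 96.5 CPM in WT at Day 4. The 3 WT libraries at Day 4 were far above all others, and the nph4-1 arf19-1 libraries, above WT at Day 0, were slightly lower at Day 4 than at Day 0 (interaction -5.89 ± 0.32 (SE), FDR 6.48e-10). IAA8 (interaction -1.44 ± 0.27 (SE)) kept part of its induction, at 33.6, 40.3 and 44.1 CPM in nph4-1 arf19-1 against 65.6, 95.8 and 95.6 CPM in WT at Day 4. IAA2 declined in both genotypes and to a lower level in nph4-1 arf19-1, 17.6, 16.1 and 21.2 CPM against 49.8, 39.8 and 56.4 CPM in WT (interaction -1.93 ± 0.29 (SE)). IAA18 moved the other way, with 26, 32.4 and 22.8 CPM in nph4-1 arf19-1 and 14.6, 13.2 and 16.9 CPM in WT at Day 4, without overlap between the genotypes (interaction 1.1 ± 0.17 (SE), FDR 0.000142). The auxin receptor gene TIR1 was induced less in nph4-1 arf19-1, reaching 28.1, 25.6 and 34.4 CPM against 53.4, 57 and 55.1 CPM in WT (interaction -1.07 ± 0.19 (SE), FDR 0.000459).

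The GH3 genes divided between the 2 directions, with 3 of 8 higher and 2 lower at FDR below 0.05 (median 1.21, and 1.34 with each library set to at least 3 reads). GH3.2 had the largest positive interaction among loci with at least 10 reads on average in each group. It was at 2.66, 1.87 and 2.63 CPM in nph4-1 arf19-1 against 412, 389 and 435 CPM in WT at Day 0, and at 197, 196 and 177 CPM in nph4-1 arf19-1 against 487, 299.7 and 353 CPM in WT at Day 4. The fresh nph4-1 arf19-1 libraries were far below those of the other 3 groups, and the gene was induced in culture in nph4-1 arf19-1 and did not change detectably in WT (interaction 6.43 ± 0.29 (SE), FDR 3.52e-11). The direct log2 difference of nph4-1 arf19-1 from WT was -7.43 at Day 0, and at Day 4 it was smaller but still passed the test (FDR 5.31e-05). GH3.3 behaved likewise, at 8.37, 6.63 and 6.58 CPM in nph4-1 arf19-1 and 46.9, 60.3 and 63.6 CPM in WT at Day 0 and at 1789, 1524 and 1633 CPM in nph4-1 arf19-1 and 2432, 1806 and 2049.8 CPM in WT at Day 4 (interaction 2.63 ± 0.24 (SE)). Its Day 4 levels did not pass the test of a genotype difference (FDR 0.069), although the 3 libraries of each genotype did not overlap. GH3.4, with 0, 0 and 1 reads in nph4-1 arf19-1 and 65, 83 and 63 reads in WT at Day 0, reached 5.04, 3.98 and 4.47 CPM in nph4-1 arf19-1 and 21.7, 7.78 and 7 CPM in WT at Day 4 (FDR of the interaction 0.000874). GH3.5 had the opposite pattern, with overlapping Day 0 levels and 18.2, 21.6 and 14.6 CPM in nph4-1 arf19-1 against 60.5, 55.9 and 55.8 CPM in WT at Day 4 (interaction -1.70 ± 0.29 (SE)). LBD16, a callus-forming LBD factor, was induced in both genotypes, with 7.9, 6.4 and 6.92 CPM in nph4-1 arf19-1 and 8.1, 5.96 and 6.49 CPM in WT at Day 4, and no difference in its change was detectable at the depth of Day 0 (FDR 0.7). The related LBD18 and LBD29 had no read in any Day 0 library, so a difference in their change could not be assessed. At Day 4, LBD18 was at 0.681, 0.173 and 0.814 CPM in nph4-1 arf19-1 and 5.63, 4.67 and 3.95 CPM in WT (direct log2 difference -3.06, FDR 2.9e-05). LBD29 overlapped, at 2.59, 1.21 and 2.44 CPM in nph4-1 arf19-1 and 4.73, 3.63 and 2.16 CPM in WT (FDR 0.142).

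**Figure D3:**
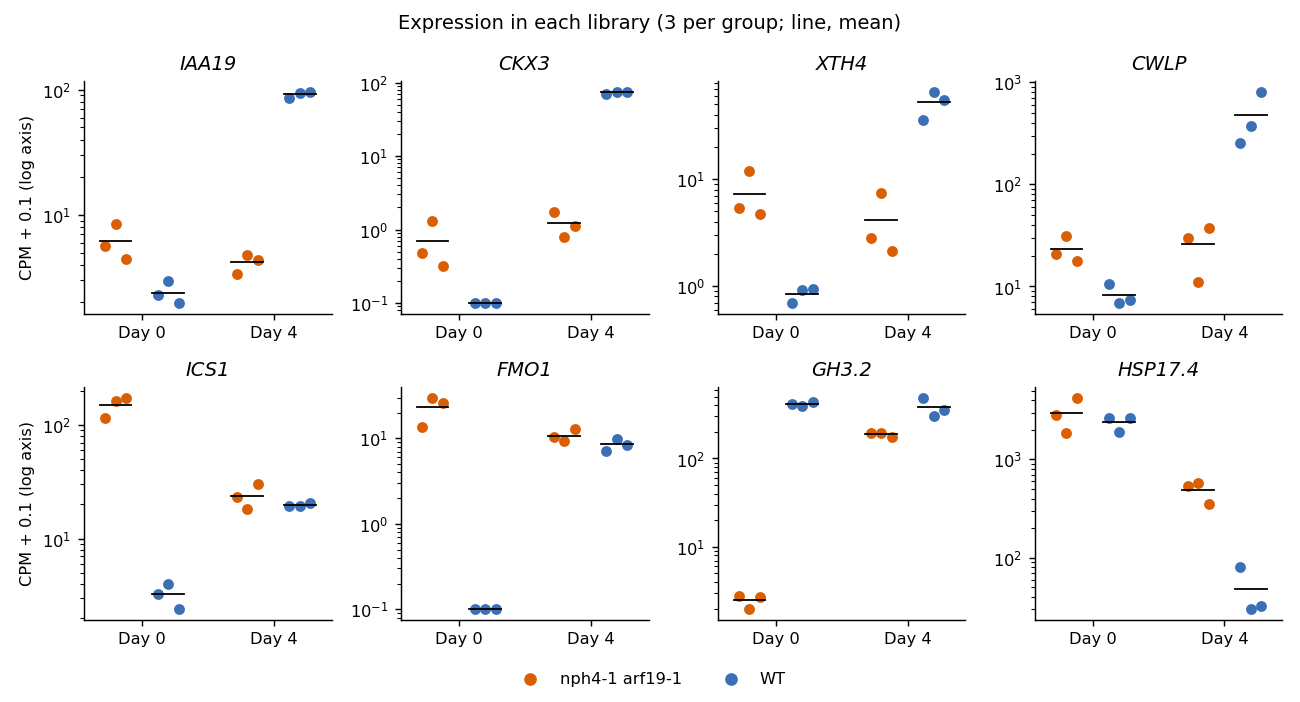
CPM plus 0.1, on log axes that differ between panels, in each library of nph4-1 arf19-1 (orange) and WT (blue) at Day 0 and Day 4 for 8 loci. IAA19, CKX3, XTH4 and CWLP were highest in WT at Day 4, ICS1 and FMO1 were already expressed in nph4-1 arf19-1 at Day 0, GH3.2 was low in nph4-1 arf19-1 at Day 0, and HSP17.4 declined less in nph4-1 arf19-1.

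Genes of wall growth and assembly were among the inductions that were weaker in nph4-1 arf19-1. CWLP, a proline-rich protein that links wall and plasma membrane, was at 20.7, 31.1 and 17.8 CPM in nph4-1 arf19-1 and 10.5, 6.77 and 7.3 CPM in WT at Day 0, and at 29.4, 10.9 and 37.4 CPM in nph4-1 arf19-1 and 255, 372 and 812 CPM in WT at Day 4 (interaction -5.74 ± 0.72 (SE), FDR 2.28e-05). XTH4, an enzyme that cuts and rejoins xyloglucan, was at 2.72, 7.27 and 2.03 CPM in nph4-1 arf19-1 against 35.3, 65.8 and 55.5 CPM in WT at Day 4, but was also higher in nph4-1 arf19-1 at Day 0, with 5.32, 11.7 and 4.6 CPM against 0.594, 0.812 and 0.834 CPM in WT (interaction -6.96 ± 0.68 (SE), FDR 1.28e-06). Its relative XTH19 was induced in both genotypes, to 55.6, 28 and 49.8 CPM in nph4-1 arf19-1 and 214, 153 and 173 CPM in WT (interaction -2.97 ± 0.39 (SE)). At Day 0 XTH19 was higher in nph4-1 arf19-1, at 8.56, 15.1 and 10.3 CPM against 4.95, 5.82 and 6.88 CPM in WT (FDR 0.0437). Over the family, 4 of 20 XTH genes were lower and 2 higher at FDR below 0.05, with a median of -0.14. In the study's list of cell wall synthesis genes, 16 of 56 were lower (28.6%, beside 11.0% of all loci) and 1 was higher, with a median interaction of -0.38, and the genotypes differed at Day 4 alone for 12 of the 16. Examples were CESA6, a subunit of primary wall cellulose synthase (129, 139.7 and 152 CPM in nph4-1 arf19-1 against 220.4, 223 and 209.9 CPM in WT at Day 4, interaction -0.70 ± 0.15 (SE)), CTL1, a chitinase-like protein needed for cellulose deposition (106, 118 and 116 CPM in nph4-1 arf19-1 against 204, 239.6 and 222 CPM in WT at Day 4, FDR of the interaction 0.000294), and TBR (TRICHOME BIREFRINGENCE, interaction -1.70 ± 0.22 (SE)). None of these 3 passed the fold limit.

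Further named loci had a missing induction or a deeper decline at Day 4. CKX3, which degrades cytokinins, was at 1.63, 0.692 and 1.02 CPM in nph4-1 arf19-1 and 70.5, 73.5 and 75.1 CPM in WT at Day 4, while at Day 0 it was at 0.38, 1.19 and 0.219 CPM in nph4-1 arf19-1 and had no read in any WT library (FDR of the interaction 2.68e-05). The WT libraries agreed closely at Day 4 and lay far above nph4-1 arf19-1. Of 7 cytokinin oxidase genes tested, CKX3 was the 1 that was lower and CKX1 the 1 that was higher, with 4.36, 2.77 and 4.47 CPM in nph4-1 arf19-1 and 1.24, 0.907 and 1.4 CPM in WT at Day 4 for CKX1 (interaction 1.86 ± 0.49 (SE), FDR 0.00928, and 0.0564 without Day 0 WT replicate 3). TPPJ, a trehalose 6-phosphate phosphatase, was at similar levels in both genotypes at Day 0, 22.6, 14.4 and 33.1 CPM in nph4-1 arf19-1 and 19, 26.4 and 32.5 CPM in WT. By Day 4 it had fallen to 1, 0 and 1 reads in the nph4-1 arf19-1 libraries, against 124, 86 and 130 reads in WT (FDR of the interaction 4.16e-06). ESM1, which modifies glucosinolate breakdown, was at 8.31, 2.42 and 8.34 CPM in nph4-1 arf19-1 and 56.8, 143 and 204 CPM in WT at Day 4 (interaction -5.43 ± 1.1 (SE)). SUC2, the sucrose carrier of phloem companion cells, was at 0, 0.346 and 1.22 CPM in nph4-1 arf19-1 and 12.4, 12.8 and 8.02 CPM in WT at Day 4 (interaction -4.71 ± 1.06 (SE), FDR 0.00319). The other phloem markers did not follow it, since APL did not exceed 0.51 CPM in any of these libraries and SULTR2;2 was at 2.04 to 3.46 CPM in nph4-1 arf19-1 against 0.788 to 1.43 CPM in WT at Day 4. SUC2 no longer passed without replicate 2 of nph4-1 arf19-1 at Day 0 (FDR 0.102).

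Transcription factors of this kind included WRKY23, known as an auxin-responsive WRKY gene in roots, and WOX13, a homeobox gene linked to callus formation. WRKY23 was at 143, 190.0 and 154 CPM in nph4-1 arf19-1 and 109.6, 101 and 84 CPM in WT at Day 0 and at 17, 21.3 and 15.7 CPM in nph4-1 arf19-1 and 110.0, 87.5 and 108 CPM in WT at Day 4. Its level did not change detectably in WT and fell in nph4-1 arf19-1 (interaction -3.22 ± 0.26 (SE), FDR 1.83e-07). WOX13 reached 10.4, 11.1 and 10.6 CPM in nph4-1 arf19-1 and 38.9, 41.5 and 37.9 CPM in WT (interaction -2.32 ± 0.28 (SE)), with overlapping levels at Day 0. It was the 1 lower member of the wound and regeneration list, in which 4 of 14 genes were higher at FDR below 0.05 (28.6%, beside 12.5% of all loci, median 0.05). MYB95 was at 4.22, 5.54 and 5.69 CPM in nph4-1 arf19-1 and 13.7, 19.1 and 19.9 CPM in WT at Day 4 (interaction -3.87 ± 0.40 (SE)). It was also higher in nph4-1 arf19-1 at Day 0, at 6.46, 11.7 and 7.24 CPM against 1.78, 2.84 and 1.04 CPM in WT. The direct log2 differences of MYB95 were 2.09 at Day 0 and -1.78 at Day 4. MYB95, WOX13, ARF7, ARF19, HSP17.4, NAC042, LHCB2.4, PORB, AT5G03710, AT5G24240, 3xHMG-box2, WRKY53, PLT3 and ARR6 overlap another locus in the annotation. The strand setting of the counting is not given in the sources used here, so reads of such pairs could be shared.

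The study's list of G2/M phase genes was weighted to lower changes. Of 174 tested, 49 were lower (28.2%) and 2 higher (1.15%) at FDR below 0.05, beside 11.0% and 12.5% of all loci. The median interaction was -1.96 (-1.86 with each library set to at least 3 reads). A group with 3 reads or fewer in every library was present for 104, which limited these calls. In the direct Day 4 difference, 137 of the 174 were lower and 2 higher in nph4-1 arf19-1, beside 19.2% and 21.0% of all loci. Of the 49, the genotypes differed at Day 4 alone for 42. CDC20.1, an activator of the anaphase-promoting complex, was at 0.953, 2.77 and 1.42 CPM in nph4-1 arf19-1 and 15.2, 34.7 and 18.5 CPM in WT at Day 4, with at most 4 reads in any Day 0 library (FDR of the interaction 0.00791, and 0.0526 without replicate 1 of nph4-1 arf19-1 at Day 0). The kinesin AT5G60930 was at 0.953, 1.38 and 1.22 CPM in nph4-1 arf19-1 and 6.19, 5.31 and 3.95 CPM in WT (interaction -2.93 ± 0.38 (SE)). The chromosomal protein gene 3xHMG-box2 was at 3.68, 5.37 and 5.69 CPM in nph4-1 arf19-1 and 18.9, 24.6 and 17.3 CPM in WT at Day 4, and at 2.47, 4.08 and 2.63 CPM in nph4-1 arf19-1 and 0.198, 0.542 and 0.417 CPM in WT at Day 0 (interaction -4.95 ± 0.49 (SE)). This locus overlaps the defence gene WRKY53, which was higher in nph4-1 arf19-1 at Day 0. AT4G35730 and AT3G07320 of the same list were likewise lower in nph4-1 arf19-1 at Day 4 and higher at Day 0 (interactions -5.24 ± 0.43 (SE) and -3.98 ± 0.39 (SE)). Of 169 tested S phase genes, 27 were lower (16%) and 6 higher, with a median of -0.32. In the study's shorter lists of core regulators, 6 of 12 S phase regulators were lower and none higher (50%, median -1.47). Of 38 core G2/M phase regulators, 6 were lower and 1 higher (15.8%, median -1.04). With each library set to at least 3 reads, these medians were -1.03 and -0.91. A group with 3 reads or fewer in every library was present for 5 of the 12 and 17 of the 38, so the shares do not rank the lists. In the direct Day 4 difference, 8 of the 12 were lower and 1 higher in nph4-1 arf19-1, and 20 of the 38 were lower and 2 higher. Of 24 core G1/S phase regulators, 2 were higher and none lower.

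Many of the named loci whose lower change went with a higher Day 0 level are known for defence. Salicylic acid, made through ICS1, and N-hydroxypipecolic acid, made through ALD1 and FMO1, are the signals of systemic acquired resistance. ICS1 was at 114, 162 and 173 CPM in nph4-1 arf19-1 and 3.17, 3.93 and 2.29 CPM in WT at Day 0, and at 23.2, 18 and 29.9 CPM in nph4-1 arf19-1 and 19.4, 19.3 and 20.5 CPM in WT at Day 4 (interaction -5.27 ± 0.31 (SE), FDR 1.64e-09). The fresh nph4-1 arf19-1 libraries were the highest, and the 2 genotypes overlapped after culture. FMO1 was at 13.3, 29.7 and 25.7 CPM in nph4-1 arf19-1 at Day 0, where no WT library had a read, and at 10.2, 9.17 and 12.6 CPM in nph4-1 arf19-1 and 7.09, 9.85 and 8.27 CPM in WT at Day 4 (FDR of the interaction 6.63e-07). ALD1 was at 9.89, 14.3 and 15.1 CPM in nph4-1 arf19-1 at Day 0, against 0, 1 and 0 reads in WT (FDR of the interaction 0.000105). In the whole pathway list, 8 of 15 genes were lower (53.3%, beside 11.0% of all loci) and 1 was higher, with a median of -1.28. At Day 0, 10 were higher and none lower in nph4-1 arf19-1, beside 11.1% and 5.66% of all loci. At Day 4, 9 were higher and 2 lower, beside 21.0% and 19.2% of all loci.

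The pathogenesis-related (PR) genes followed, with 3 of 5 lower (60.0%, beside 11.0% of all loci). PR1 was at 22.4, 27.4 and 18.2 CPM in nph4-1 arf19-1 at Day 0, against 1, 1 and 2 reads in WT, and was strongly expressed in both genotypes at Day 4, at 382, 467 and 664 CPM in nph4-1 arf19-1 and 529.8, 379.8 and 362 CPM in WT (FDR of the interaction 8.15e-06). PR2, a beta-1,3-glucanase, had the most negative interaction among loci with at least 10 reads on average in each group. It was at 89.2, 128 and 84.4 CPM in nph4-1 arf19-1 and 5.54, 9.21 and 6.26 CPM in WT at Day 0, and at 5.86, 5.19 and 4.07 CPM in nph4-1 arf19-1 and 16, 59.2 and 71.7 CPM in WT at Day 4, so that the genotypes changed places (interaction -7.05 ± 0.57 (SE), FDR 1.83e-07). PR5 was at 9.13, 8.16 and 7.24 CPM in nph4-1 arf19-1 at Day 0, and at most 5 reads were found in any other library of these days (FDR of the interaction 0.000248). Of 56 WRKY genes tested, 11 were lower (19.6%) and 7 higher (12.5%), with a median of 0.06, beside 11.0% and 12.5% of all loci. Of the 11, 8 were higher in nph4-1 arf19-1 at Day 0 without being lower at Day 4. WRKY70, a regulator of salicylic acid responses, was at 105, 113 and 101 CPM in nph4-1 arf19-1 and 8.31, 11.4 and 15.6 CPM in WT at Day 0 (interaction -2.06 ± 0.27 (SE)). WRKY62 was at 2.85, 2.38 and 2.63 CPM in nph4-1 arf19-1 at Day 0, where WT had 0, 1 and 0 reads, and at 0.409, 0.173 and 0.814 CPM in nph4-1 arf19-1 and 1.46, 2.46 and 3.06 CPM in WT at Day 4 (FDR of the interaction 1.34e-05).

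Several enzymes and stress genes shared the higher Day 0 level. GLP9, a germin-like protein gene, was at 75.7, 109 and 131 CPM in nph4-1 arf19-1 and 2.77, 1.9 and 1.25 CPM in WT at Day 0, and remained higher at Day 4, at 98.5, 65.9 and 101 CPM in nph4-1 arf19-1 against 42.3, 29.8 and 30.2 CPM in WT (interaction -4.34 ± 0.36 (SE)). TAT3, a tyrosine aminotransferase gene responsive to jasmonate, was at 223, 263 and 257 CPM in nph4-1 arf19-1 and 29.5, 42.4 and 15.2 CPM in WT at Day 0 and below every WT library at Day 4 (interaction -4.11 ± 0.40 (SE)). The monodehydroascorbate reductase gene MDHAR was at 17.7, 39.3 and 21 CPM in nph4-1 arf19-1 and 1.78, 3.11 and 0.626 CPM in WT at Day 0 (FDR of the interaction 3.39e-06). At Day 4 MDHAR was lower in nph4-1 arf19-1, at 29.6, 29.3 and 39.9 CPM against 50, 94.6 and 98 CPM in WT. ACS7, which makes the ethylene precursor ACC, was at 57, 63.9 and 78.7 CPM in nph4-1 arf19-1 and 11.7, 16.7 and 11.7 CPM in WT at Day 0, with overlapping levels at Day 4 (interaction -2.05 ± 0.33 (SE)). The U-box gene PUB54, the TIR domain gene AT1G52900 and the AAA-ATPase gene AT3G28580 had 3 reads or fewer in every Day 0 WT library and between 3.42 and 22.3 CPM in nph4-1 arf19-1. The light-harvesting gene LHCB2.4 and the chlorophyll synthesis gene PORB were also higher in nph4-1 arf19-1 at Day 0 (interactions -3.49 ± 0.76 (SE) and -2.46 ± 0.54 (SE)).

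Most loci with a higher change, 119 of 167, fell in WT, and the named ones included stress and senescence genes. HSP17.4, a small heat shock protein, was at 2832, 1856 and 4241 CPM in nph4-1 arf19-1 and 2660.1, 1904 and 2658 CPM in WT at Day 0, where the genotypes overlapped, and at 533, 579 and 351 CPM in nph4-1 arf19-1 and 81.1, 29.8 and 32.2 CPM in WT at Day 4 (interaction 3.04 ± 0.54 (SE), FDR 0.000461). The chaperone gene HSP70 reached 1065, 1190.0 and 645 CPM in nph4-1 arf19-1 and 229.7, 215 and 361 CPM in WT at Day 4 (interaction 1.71 ± 0.45 (SE)). In the heat shock list, 3 of 9 were higher and 1, HSP18.2 (interaction -2.08 ± 0.50 (SE)), was lower, with a median of 0.98. Among 10 leaf senescence genes, 3 were higher and 2 lower, with a median of 0.56. The NAC regulator ORE1 was at 128, 125 and 145 CPM in nph4-1 arf19-1 and 186, 210.4 and 222 CPM in WT at Day 0 and at 69.5, 90 and 43.5 CPM in nph4-1 arf19-1 and 28.6, 14.5 and 14.4 CPM in WT at Day 4 (interaction 2.45 ± 0.34 (SE), FDR 5.24e-05). NAP, another senescence NAC gene, and NYC1, a chlorophyll b reductase, had interactions of 1.94 ± 0.34 (SE) and 1.37 ± 0.18 (SE).

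The transcription factor genes MYB102 and NAC042 and the locus AT5G14470 were in the same direction. MYB102 was at 101, 158 and 50.6 CPM in nph4-1 arf19-1 and 33.5, 10.2 and 11.5 CPM in WT at Day 4, both below every Day 0 library (interaction 2.94 ± 0.56 (SE)). NAC042 was at 36.9, 32.2 and 41.1 CPM in nph4-1 arf19-1 and 12.8, 6.22 and 4.46 CPM in WT at Day 4 (interaction 2.94 ± 0.45 (SE)), and AT5G14470 at 94.2, 125 and 56.7 CPM in nph4-1 arf19-1 and 22.6, 8.55 and 11.7 CPM in WT (interaction 3.03 ± 0.42 (SE)). Genes of enzymes were also among them. The glucosyltransferase gene UGT72E1 was at 26.8, 22.7 and 31.3 CPM in nph4-1 arf19-1 and 3.83, 3.5 and 2.42 CPM in WT at Day 4, with overlapping levels at Day 0 (interaction 3.02 ± 0.34 (SE), FDR 5.74e-06). The glutathione transferase gene GSTU12 was at 82.7, 59 and 82.4 CPM in nph4-1 arf19-1 and 20.3, 12.7 and 10.1 CPM in WT (interaction 3.2 ± 0.53 (SE)), and the glyoxalase gene GLYI7 at 61, 79.8 and 49.6 CPM in nph4-1 arf19-1 and 22.4, 13.1 and 15.1 CPM in WT (interaction 3.11 ± 0.39 (SE)). GLYI7 was also lower in nph4-1 arf19-1 at Day 0, at 39.2, 32.3 and 37.3 CPM against 117, 50.5 and 85.1 CPM in WT (FDR 0.00366). AT5G03710 and AT4G06597, both with an interaction of 3.85, had nearly equal counts in every library and may share reads, so they are uncertain. The 5 loci FRO4 (a ferric reductase gene), PE11 (a pectinesterase gene), CHIA (a chitinase gene), GEX3 and AT5G24240 had at most 3 reads per library in a group and did not exceed 26.6 CPM on these days. CHIA no longer passed without Day 0 WT replicate 2 (FDR 0.0568).

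Genes of respiration changed by less than the fold limit. Of 83 genes in the study's respiratory chain list, 27 were higher (32.5%, beside 12.5% of all loci) and 2 lower, with a median of 0.36. The list divided by genome, with 17 of 19 loci of the mitochondrial genome higher (median 1.61), 4 of 5 AT2G07 loci, which lie in the nuclear copy of mitochondrial DNA, higher, and 6 of 59 other nuclear loci higher and 2 lower (median 0.1). ATP9, a subunit of the mitochondrial ATP synthase, was at 54, 56.6 and 65.6 CPM in nph4-1 arf19-1 and 65.7, 58.4 and 60.7 CPM in WT at Day 0 and at 295, 455 and 399.7 CPM in nph4-1 arf19-1 and 96, 104 and 117 CPM in WT at Day 4 (interaction 1.93 ± 0.20 (SE), FDR 2.05e-06). AT2G07671 is a nuclear copy nearly identical to ATP9, so that its reads are uncertain (interaction 1.92 ± 0.23 (SE)). ATP8 had an interaction of 1.85 ± 0.23 (SE). Of 29 TCA cycle genes, 8 were higher (27.6%) and 1 lower with a median of 0.26, CSY2, a peroxisomal citrate synthase, having an interaction of 1.01 ± 0.15 (SE). The nitrilase genes NIT1 and NIT2, which are close paralogs, were lower in nph4-1 arf19-1 at Day 0 and were strongly induced in both genotypes (interactions 1.29 ± 0.23 (SE) and 1.23 ± 0.21 (SE)).

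**Figure D4:**
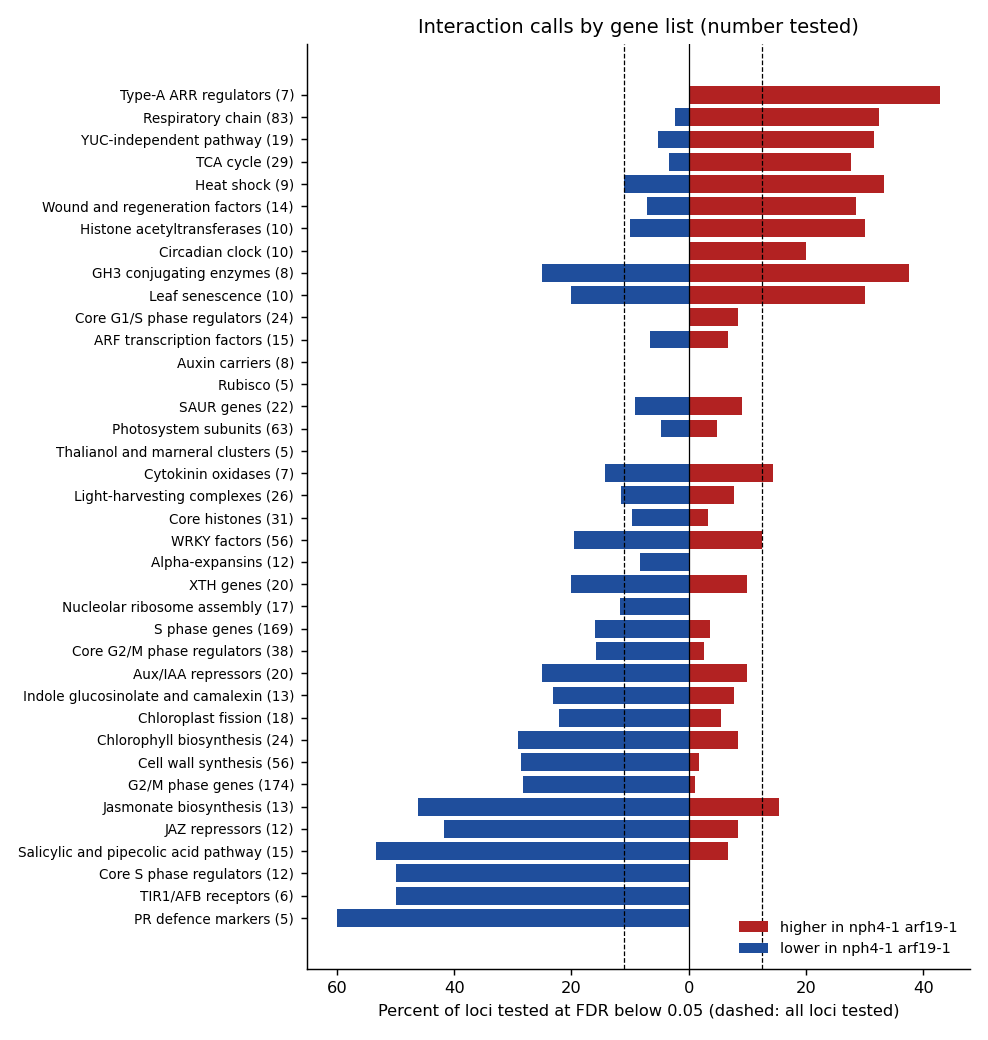
Percent of the loci tested in each gene list that had a higher (red, right) or lower (blue, left) change in nph4-1 arf19-1 at FDR below 0.05, for lists with at least 5 loci tested. Dashed lines mark all loci tested, at 12.5% higher and 11.0% lower. PR defence markers, TIR1/AFB receptors, core S phase regulators and the salicylic acid list had the largest shares lower, and type-A ARR genes, GH3 genes, heat shock genes and the respiratory chain the largest shares higher. The TIR1/AFB share was 3 of 6 genes (median interaction -0.25), and for 2 of the 3 no genotype difference was called on either day.

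The Day 6 libraries were not in the contrast, although they shared its fit, and were used to ask whether the differences persisted. For nph4-1 arf19-1 at Day 6, the treatment label reads yucasin, an inhibitor of auxin synthesis, which the titles do not mention, so a part of any Day 6 difference due to yucasin cannot be told apart. At Day 6, 30.4% of all loci tested were lower and 29.5% higher in nph4-1 arf19-1 than in WT at FDR below 0.05. Of the 135 loci with a lower change that differed at Day 4 alone, 120 were lower and 2 higher at Day 6, with a median log2 difference of -2.08. Of the 133 that were higher at Day 0 and lower at Day 4, 106 were lower and 8 higher (median -1.42). The 85 loci that differed at Day 0 alone had no common direction, with 24 higher and 15 lower (median 0.05), and 27 of the 30 loci higher on both days were higher again (median 2.92). Of the 122 loci with a higher change that differed at Day 4 alone, 106 were higher and 2 lower (median 1.99). IAA19 was still lower at Day 6 by a log2 difference of -4.94, TIR1 of -1.09 and WRKY23 of -3.04, whereas GH3.2 and ICS1 did not differ detectably (0.10, FDR 0.586, and 0.05, FDR 0.837). UGT72E1 was further apart, higher in nph4-1 arf19-1 by 7.75.

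**Figure D5:**
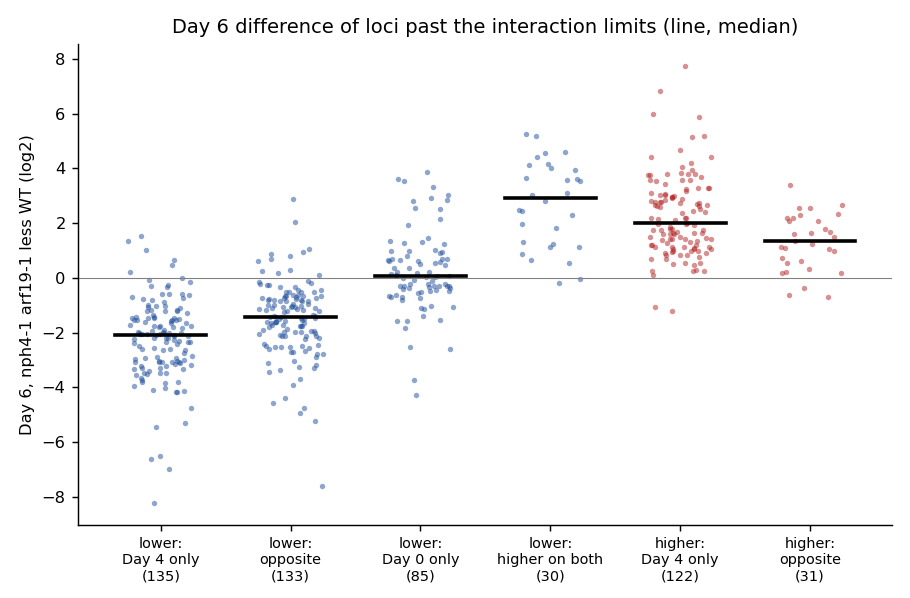
Log2 difference of nph4-1 arf19-1 from WT at Day 6 (y axis) for loci past the interaction limits, grouped by direction of the interaction and by the days on which the genotypes differed. Each point is a locus and the line is the median, which was -2.08 for lower loci that differed at Day 4 alone, 0.05 for those that differed at Day 0 alone and 1.99 for higher loci that differed at Day 4 alone. The 15 loci of smaller groups are not drawn.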

How the data were processed

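The authors isolated protoplasts from rosette leaves, prepared stranded mRNA libraries and mapped reads with Bowtie 0.12.9 to TAIR10 (submitters' processing notes). They deposited raw tag counts per splice variant and the total of mapped reads. The strand setting of the counting is not given in the sources used here. The lowest-numbered variant stood for each of 24532 loci (from 32294 variants); 1632 loci had another variant with more reads. With edgeR 4.0.16 (R 4.3.3), counts of all 18 libraries were scaled by TMM on the deposited totals, filtered by filterByExpr and fitted by quasi-likelihood with 6 group means, leaving 18143 loci. P-values were adjusted by Benjamini-Hochberg over all of them. Limits were an absolute log2 interaction above 2 and FDR below 0.01, with a second count at FDR below 0.05. CPM are TMM-scaled.

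Named loci were ARF7 and ARF19, the largest changes with a mean of at least 10 reads in each group and one sign in all 3 replicates, the lowest p-values among loci with at most 3 reads per library in a group, up to 4 loci with the lowest p in each of 46 lists, and genes the study names. A part of them is described. The members and lists were chosen with earlier results of these data known. Promoters were read from TAIR10.1 (RefSeq) by locus ID, matching 24193 loci. The scripts were tested on simulated data. Alternatives covered scaling, filters, limits, the variant counted, DESeq2 1.42.0, a replicate block, the 12 libraries alone and each replicate left out.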

Additional observations from a re-analysis of the deposited data

Results flagged for a closer look

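Of the 78 loci examined in detail, 55 passed the limits in the interaction itself, so their change from Day 0 to Day 4 differed between nph4-1 arf19-1 and WT by the test of that difference. Log2 interactions below 0, with a lower level in nph4-1 arf19-1 at Day 4, were found for ARF19 (-2.75), SUC2 (-4.71), MYB95 (-3.87), XTH4 (-6.96), WRKY23 (-3.22), AT3G07320 (-3.98), ESM1 (-5.43), IAA19 (-5.89), CWLP (-5.74), 3xHMG-box2 (-4.95), XTH19 (-2.97), WOX13 (-2.32), AT4G35730 (-5.24), AT5G60930 (-2.93), TAT3 (-4.11), MDHAR (-5.0) and PR2 (-7.05). Among these, MYB95, XTH4, WRKY23, AT3G07320, IAA19, 3xHMG-box2, XTH19, AT4G35730, TAT3, MDHAR and PR2 were also higher in nph4-1 arf19-1 at Day 0. Those of loci with a higher level in nph4-1 arf19-1 at Day 0 and no lower level at Day 4 were ICS1 (-5.27), LHCB2.4 (-3.49), WRKY70 (-2.06), GLP9 (-4.34), WRKY53 (-2.45), ACS7 (-2.05), PORB (-2.46) and HSP18.2 (-2.08). Log2 interactions above 0 were found for GSTU12 (3.2), GLYI7 (3.11), GH3.3 (2.63), NAC042 (2.94), HSP17.4 (3.04), UGT72E1 (3.02), AT4G06597 (3.85), MYB102 (2.94), GH3.2 (6.43), AT5G03710 (3.85), AT5G14470 (3.03), ORE1 (2.45) and AT5G50760 (2.48).

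For the other loci a group of 3 libraries held at most 3 reads in each, and the FDR of the interaction is given in place of a fold. With a lower change in nph4-1 arf19-1 these were PUB54 (5.82e-07), FMO1 (6.63e-07), AT1G52900 (1.43e-06), PR5 (0.000248), ALD1 (0.000105), PR1 (8.15e-06), AT3G28580 (6.86e-07), CDC20.1 (0.00791), WRKY62 (1.34e-05), CKX3 (2.68e-05) and TPPJ (4.16e-06), and with a higher change GH3.4 (0.000874), PE11 (0.00117), GEX3 (0.00415), FRO4 (0.000613), CHIA (0.00337) and AT5G24240 (0.00087). Groups of 3 were not examined for single distant samples.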

How the results depend on the processing

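Over 20 alternatives, 1552 of 1557 values of the loci examined in detail kept their direction and side of the threshold, 5 lost significance and none reversed. The 5 were CDC20.1 (FDR 0.0526 without replicate 1 of nph4-1 arf19-1 at Day 0), SUC2 (0.102 without replicate 2 of nph4-1 arf19-1 at Day 0), CHIA and ARR6 (0.0568 and 0.068 without Day 0 WT replicate 2) and CKX1 (0.0564 without Day 0 WT replicate 3). With limits of 1 and 0.05, 1118 loci were higher and 1276 lower. Leaving out each replicate in turn gave 122 to 268 higher and 256 to 410 lower loci past the limits, and 1888 to 2566 higher and 1567 to 1999 lower loci at FDR below 0.05. It gave 172 to 302 loci lower in both change and Day 4 level, 114 to 258 loci higher in both, and 84 to 134 lower loci with a higher Day 0 level alone. The extremes of 172 and of 268 and 258 came without replicate 2 of nph4-1 arf19-1 at Day 0 and without Day 4 WT replicate 1, and the cause was not tested. The replicate block gave 565 loci past the limits (175 higher, 390 lower), 535 of them among the 551. Same-numbered libraries correlated at -0.0718 to 0.273, with 2 of 18 pairs over 0.1, so the numbers were not taken to pair the samples. DESeq2 gave 657 loci, 532 of them shared. At FDR below 0.05, lower loci outnumbered higher ones with library totals alone (2068 higher, 2141 lower). The same held with relative log expression scaling (2041 higher, 2176 lower) and with DESeq2 (2108 higher, 2311 lower), in contrast to the main fit. With 3 libraries per group, low counts at Day 0 limited what could be detected.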

Other observations

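Beyond the respiratory chain list, 54 of 115 mitochondrial genome loci tested had a higher change in nph4-1 arf19-1 at FDR below 0.05 and none a lower one (median log2 interaction 1.66). Of 84 chloroplast genome loci, 9 were higher, no larger a share than the 12.5% of all loci, and none lower (median 0.59). Libraries were prepared by an mRNA kit, and the part of RNA selection in these values was not tested.

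Of 13 jasmonate biosynthesis genes, 6 were lower (46.2%) and 2 higher (15.4%) at FDR below 0.05 (median -0.58), beside 11.0% and 12.5% of all loci. Of 12 JAZ repressor genes of the jasmonate pathway, 5 were lower (41.7%) and 1 higher (median -0.49). Of 24 chlorophyll biosynthesis genes, 7 were lower (29.2%) and 2 higher (median -0.26), with 5 of the 7 differing at Day 0 alone. Of 7 type-A ARR genes, negative regulators of cytokinin response, 3 were higher (42.9%) and none lower (median 0.85). ARR6 was at 17.4, 14.4 and 19.3 CPM in nph4-1 arf19-1 and 11.3, 11.8 and 11.8 CPM in WT at Day 4, with 9 reads or fewer in every Day 0 library (FDR of the interaction 0.0114). Of 22 SAUR genes tested, 2 were higher and 2 lower (9.09% each), below the shares of all loci. Both higher genes were lower in nph4-1 arf19-1 than in WT at Day 0 and higher at Day 4 (FDR below 0.05). Among these 2, AT5G50760 was at 34.7, 44 and 31.3 CPM in nph4-1 arf19-1 and 17.3, 8.42 and 10.8 CPM in WT at Day 4 (interaction 2.48 ± 0.38 (SE)). PLT3, an AP2-type factor of regeneration, was at 3.27, 5.54 and 4.27 CPM in nph4-1 arf19-1 and 11.1, 10.4 and 7 CPM in WT at Day 4, with 2 reads or fewer in each library of fresh protoplasts, and no difference in its change was detectable (FDR 0.203). RGP2, a wall polysaccharide gene, fell more in nph4-1 arf19-1 (interaction -0.99 ± 0.16 (SE)).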
